A study of Mus musculus with 4 samples.

Results

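The troponin and tropomyosin genes of skeletal muscle were described in the gastrocnemius, a fast-fibre muscle of the calf, of mice that overexpress the nuclear receptor PPARbeta. The members are the 10 genes Tnnc1, Tnnc2, Tnni1, Tnni2, Tnnt1, Tnnt2, Tnnt3, Tpm1, Tpm2 and Tpm3, out of 12393 named genes on the array. All 10 had at least 1 probe set annotated to a single gene symbol, 22 probe sets in all out of 22626. The probe set with the highest mean log2 signal stands for a gene, and the others are given beside it. Both groups were 6 weeks old. The control group was 2 arrays of non-transgenic (wild-type) littermates, and the transgenic group was 2 arrays of MCK-PPARb mice. MCK is muscle creatine kinase, whose promoter is active in skeletal and cardiac muscle, and the labels describe the overexpression as muscle-specific. The sources used here do not give the strain, the sex, the number of transgenic lines or any pooling of animals. The titles name biological replicates, while the design text can also be read as repeat arrays. The p-values therefore describe the spread between these 4 samples, and that spread may be technical.

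Contraction of striated muscle is switched on at the thin filament. Tropomyosin is a coiled-coil dimer that lies along the actin filament, and the troponin complex sits on it with a calcium sensor (troponin C), an inhibitory subunit (troponin I) and a subunit that ties the complex to tropomyosin (troponin T). Slow and fast fibres carry different isoforms, encoded by separate genes. Tnnc1, Tnni1 and Tnnt1 encode the slow isoforms, and Tnnc1 is also the cardiac troponin C. Tnnc2, Tnni2 and Tnnt3 encode the fast ones. Tnnt2 encodes cardiac troponin T, which developing skeletal muscle also makes. Tpm3 and Tpm1 encode the slow and fast alpha-tropomyosins, besides cytoskeletal forms made from the same genes, and Tpm2 encodes beta-tropomyosin, which is found in both fibre types.

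Signals are intensities per probe set in array units on a linear scale. A difference is MCK-PPARb minus non-transgenic on the log2 scale, from a limma fit over the 11313 probe sets whose mean log2 signal exceeded the overall median, 444 signal units. A gene is called at an adjusted p under 0.05. Ppard, which encodes PPARbeta, read 2169 and 2825 in the controls against 126049 and 98797 in transgenic muscle, so it went with the labels on all 4 arrays. All 8 markers of muscle fibres had signals above the filter. Their summed signal was 945854 to 1803830 in the non-transgenic group and 949894 to 1100370 in the MCK-PPARb group, with the highest value on non-transgenic replicate 1. That array also had 4.20% of its signal in its 10 brightest probe sets, against 2.36% to 2.78% on the others. Results that rest on it are given with and without it. In bulk muscle, fewer cells of a type and less RNA per cell cannot be told apart.

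The sequences just before the transcription start are shown for the 3 slow troponin genes, whose signals lay together above the controls, and for the fast troponin C gene as a contrast. Each covers 250 bases on the strand of the gene, from RefSeq on build GRCm38.p6, with the last base next to the start. The window is chr14:31208062-31208311 on the plus strand for Tnnc1, chr1:135799171-135799420 on the plus strand for Tnni1 (the first of 2 listed starts), chr7:4515976-4516225 on the minus strand for Tnnt1 and chr2:164779735-164779984 on the minus strand for Tnnc2. Capitals mark the E-box CANNTG, the sequence bound by myogenic factors such as MyoD, searched on both strands.
Tnnc1: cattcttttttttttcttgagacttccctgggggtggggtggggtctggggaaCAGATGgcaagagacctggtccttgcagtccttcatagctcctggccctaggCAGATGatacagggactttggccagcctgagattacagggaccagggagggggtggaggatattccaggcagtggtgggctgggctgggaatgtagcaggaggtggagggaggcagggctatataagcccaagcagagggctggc
Tnni1: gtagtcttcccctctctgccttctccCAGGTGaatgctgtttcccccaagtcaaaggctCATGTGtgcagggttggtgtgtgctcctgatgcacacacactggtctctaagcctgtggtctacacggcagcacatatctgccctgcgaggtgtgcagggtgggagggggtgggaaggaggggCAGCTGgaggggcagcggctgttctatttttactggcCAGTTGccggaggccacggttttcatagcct
Tnnt1: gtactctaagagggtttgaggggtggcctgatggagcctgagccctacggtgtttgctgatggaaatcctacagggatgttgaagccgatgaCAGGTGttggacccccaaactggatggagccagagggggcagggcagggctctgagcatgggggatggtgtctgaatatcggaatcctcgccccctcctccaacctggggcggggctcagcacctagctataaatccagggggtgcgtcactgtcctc
Tnnc2: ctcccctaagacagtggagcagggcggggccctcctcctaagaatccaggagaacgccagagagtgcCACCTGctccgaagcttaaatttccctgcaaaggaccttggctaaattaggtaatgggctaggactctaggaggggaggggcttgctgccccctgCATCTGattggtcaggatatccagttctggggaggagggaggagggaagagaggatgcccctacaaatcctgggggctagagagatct

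The E-box occurred 2 times before Tnnc1, 4 times before Tnni1, 1 time before Tnnt1 and 2 times before Tnnc2, and 66.2% of the 32851 RefSeq windows of this length hold it. The CACC box CCACCC, searched on both strands, occurred 3 times before Tnnc1, with 2 matches sharing a base, 2 times before Tnni1, 1 time before Tnnt1 and 0 times before Tnnc2, against 28.1% of all windows with a match. The MCAT motif CATTCC occurred 1 time before Tnnc1, 53 to 58 bases before the start, and in no window of the other 3 (12.6% of all windows). The nuclear receptor core motif AGGTCA had 0 matches in these 4 windows (14.0% of all windows), and so had the repeat AGGTCANAGGTCA, the form of element that PPAR receptors bind (0.0335% of all windows). These counts describe the letters of short windows, and say nothing about binding or about sites elsewhere.

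The 3 slow troponin genes had higher signals on both MCK-PPARb arrays than on either control array, by 2.15 to 2.45-fold, and none of them passed the test over all genes. Tnnc1, the slow and cardiac calcium sensor, read 7334 and 9975 in the controls and 16570 and 21121 in the transgenic arrays. The groups did not overlap, and the log2 difference was 1.13 ± 0.23 (SE, n = 2 per group, 95% interval 0.60 to 1.66, adjusted p = 0.0996 with limma). Tnni1, the slow inhibitory subunit, read 3444 and 5553 in the controls and 9190 and 9583 in the transgenic arrays. These groups did not overlap either, and the difference was 1.10 ± 0.25 (95% interval 0.51 to 1.69, adjusted p = 0.148 with limma). Tnnt1, slow troponin T, read 4684 and 8784 in the controls and 14228 and 17419 in the transgenic arrays, again without overlap, and differed by 1.30 ± 0.30 (95% interval from 0.59 to 2.0, adjusted p = 0.152 with limma). Each of the 3 has 1 probe set. Without non-transgenic replicate 1, their lowest array, the differences were 0.91 for Tnnc1, 0.76 for Tnni1 and 0.84 for Tnnt1, and none was called (adjusted p = 0.0884, 0.142 and 0.108 with limma). Without non-transgenic replicate 2 they were 1.35, 1.45 and 1.75, and all 3 were called (adjusted p = 0.0170, 0.0113 and 0.00521 with limma). In the order of differences over all 6841 genes tested, counted from the highest, Tnnt1 stood at 63, Tnnc1 at 85 and Tnni1 at 93.

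The ratios of the 3 slow subunits to one another differed little between groups. Within an array, the log2 ratio of the Tnnc1 to the Tnni1 signal was 1.09 and 0.85 in control and 0.85 and 1.14 in transgenic muscle, a difference between groups of 0.027. The corresponding difference was 0.17 for Tnnt1 over Tnnc1 and 0.19 for Tnnt1 over Tnni1. For all 3 genes the lowest signal was on non-transgenic replicate 1 and the highest on MCK-PPARb replicate 2. Against non-transgenic replicate 2, the log2 signal on non-transgenic replicate 1 was lower by 0.44 for Tnnc1, 0.69 for Tnni1 and 0.91 for Tnnt1, beside differences between groups of 1.13, 1.10 and 1.30.

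**Figure D1:**
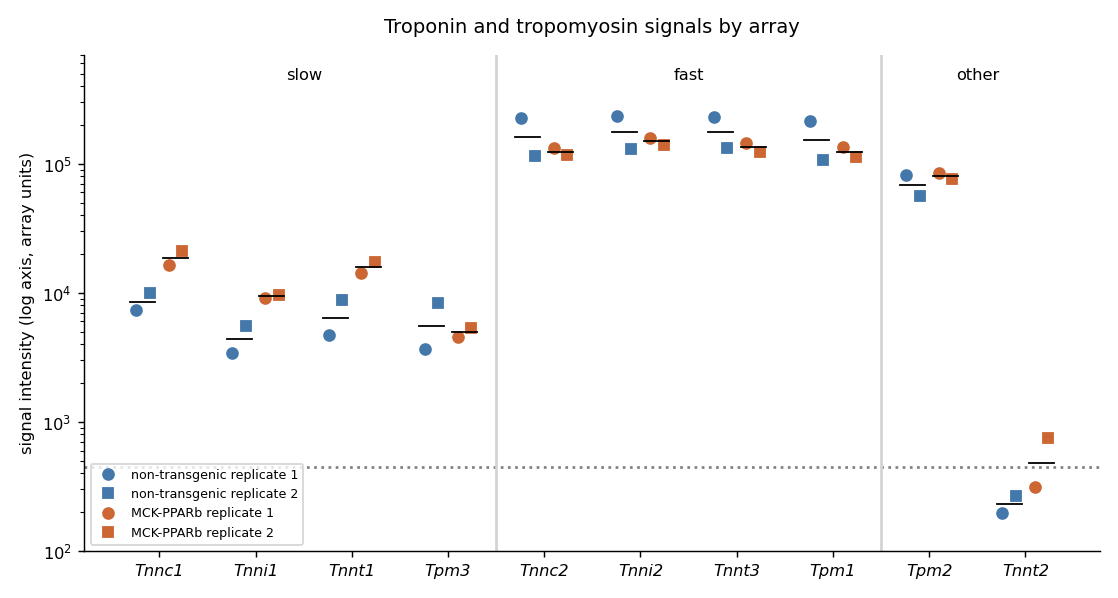
Signal intensity of each member gene (vertical axis, log scale, array units) on the 4 arrays, for the probe set of highest mean. Points are single arrays, black lines are geometric means of a group, and the dotted line is the filter level of 444 units. The slow genes Tnnc1, Tnni1 and Tnnt1 have both MCK-PPARb arrays above both controls, Tpm3 and the fast genes overlap, and Tnnt2 lies around the filter level.

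The fast troponin genes had lower means in transgenic muscle by less than the spread between arrays, a direction that turned when non-transgenic replicate 1 was left out. Tnnc2, the fast calcium sensor, read 225598 and 116024 in control and 132055 and 116466 in transgenic muscle. Its groups overlapped, and the difference was -0.38 ± 0.32 (95% interval -1.13 to 0.36, adjusted p = 0.735 with limma). Tnni2, the fast inhibitory subunit, read 235875 and 130892 against 159028 and 141114, with a difference of -0.23 ± 0.30 that turned to 0.087 with quantile normalization. Tnnt3, fast troponin T, read 232593 and 133334 against 145342 and 124077, with a difference of -0.39 ± 0.29. In all 3 genes the high value was that of non-transgenic replicate 1, whose brightest probe sets stand out as described above. Without it the differences were 0.096 for Tnnc2, 0.19 for Tnni2 and 0.010 for Tnnt3. Without non-transgenic replicate 2 that of Tnnc2 was -0.86 and was called (adjusted p = 0.0339 with limma).

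Tnni2 has 2 further probe sets above the filter. The probe set 1438609_x_at read 153916 and 82845 in the controls and 95323 and 104654 in the transgenic arrays, a difference of -0.18. The probe set 1438608_at read 1476 and 2733 against 2322 and 2025, a difference of 0.11, with its lowest value on the control array that was highest for the other probe sets of the gene. Both had groups that overlapped.

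The ratio of a slow to a fast isoform within 1 array does not depend on a factor common to all signals of that array. It was compared for each subunit. Scaling that varies with the signal level, as in quantile normalization, does change it. The level of such a ratio sets different probe sets against each other and was not read; only its change between arrays was. For troponin C, the log2 ratio of Tnnc1 to Tnnc2 was -4.94 and -3.54 in control and -2.99 and -2.46 in transgenic muscle. The group means were -4.24 ± 0.99 and -2.73 ± 0.38 (SD, n = 2 per group), a difference of 1.51 or 2.85-fold. For troponin I, the log2 ratio of Tnni1 to Tnni2 was -6.10 and -4.56 against -4.11 and -3.88, with means of -5.33 ± 1.09 and -4.00 ± 0.16 and a difference of 1.33 or 2.52-fold. For troponin T, the log2 ratio of Tnnt1 to Tnnt3 was -5.63 and -3.92 against -3.35 and -2.83, with means of -4.78 ± 1.21 and -3.09 ± 0.37 and a difference of 1.69 or 3.22-fold. In these 3 subunits both MCK-PPARb arrays lay above both controls, and the 4 arrays stood in the same order. The exact two-sided permutation test over arrays gave p = 0.333 for each, which is the smallest p that 2 arrays against 2 can give.

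The gap between the groups was small beside the spread of the controls. The lower MCK-PPARb array exceeded the higher control array by 0.55 on the log2 scale for troponin C, 0.45 for troponin I and 0.57 for troponin T. The control arrays themselves were 1.40, 1.54 and 1.71 apart, and the MCK-PPARb arrays 0.53, 0.23 and 0.52. With all arrays the slow gene made up 74.6% of the difference for troponin C, 82.7% for troponin I and 76.8% for troponin T. These shares depended on the control array: they were 112%, 135% and 101% without non-transgenic replicate 1, where the fast genes had the other sign, and 61.0%, 68.8% and 68.8% without non-transgenic replicate 2. The differences of the ratios themselves were 0.81, 0.56 and 0.83 without the former array and 2.21, 2.10 and 2.54 without the latter. With quantile normalization they were 1.24, 1.04 and 1.44. The direction was the same in all 17 alternatives, although leaving out an array cannot turn it where groups do not overlap. Pairing Tnni1 with each of the 3 probe sets of Tnni2 gave differences of 0.99 to 1.33, each with groups apart.

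**Figure D2:**
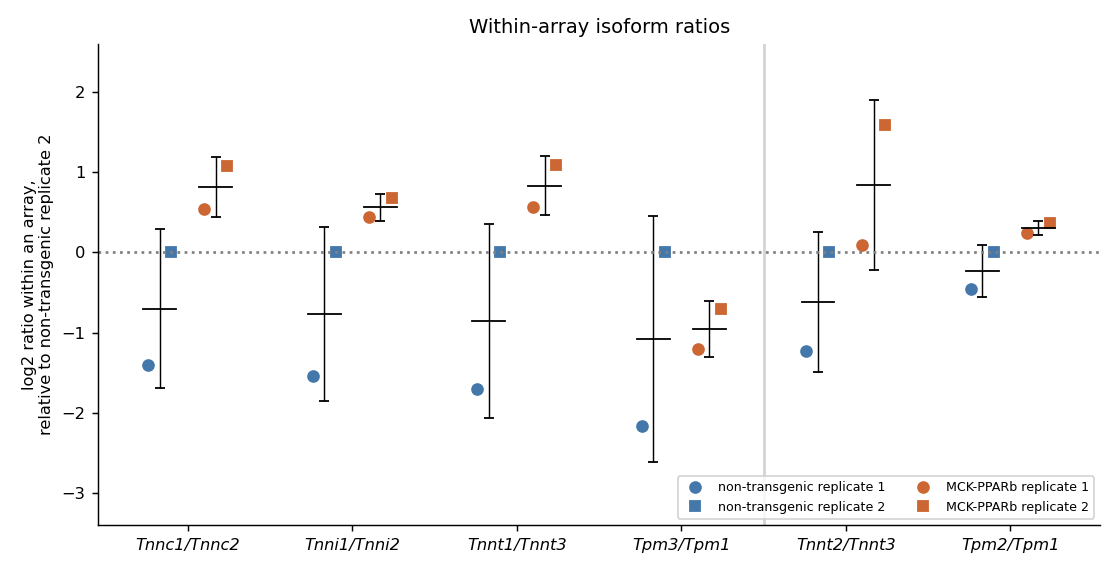
Within-array log2 ratio of 2 isoform genes (vertical axis), set to 0 at non-transgenic replicate 2, for 6 pairs of genes. Points are single arrays, and black lines with bars are the mean and SD of a group (n = 2). In the 3 slow-to-fast troponin pairs both MCK-PPARb arrays lie above both controls, by 0.45 to 0.57 at the nearest, while Tpm3/Tpm1 overlaps.

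The alpha-tropomyosin pair had a slow-to-fast difference near 0, with groups that overlap, and whether it differs from the troponins was not tested. Tpm3, the slow alpha-tropomyosin gene, read 3698 and 8332 in control and 4573 and 5370 in transgenic muscle. The controls lay on both sides of the transgenic arrays, and the log2 difference was -0.16 ± 0.36 (95% interval -1.01 to 0.68, adjusted p = 0.920 with limma). Tpm1, the fast alpha-tropomyosin gene, read 214254 and 107718 against 136041 and 113107 and differed by -0.29 ± 0.33 (adjusted p = 0.816 with limma); without non-transgenic replicate 1 its sign turned, to 0.20. The log2 ratio of Tpm3 to Tpm1 was -5.86 and -3.69 in the controls and -4.89 and -4.40 in the transgenic arrays, a difference of 0.13 between groups that overlap (exact two-sided permutation p = 1). It was -0.95 without non-transgenic replicate 1 and 1.21 without non-transgenic replicate 2, so its direction rests on single arrays. Over the 12 pairs of a Tpm3 and a Tpm1 probe set above the filter it ran from -0.34 to 0.42, with overlapping groups in every pair.

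The probe sets of Tpm3 differed in how they varied over the arrays. The probe set 1449996_a_at read 2585 and 6377 in the controls and 3174 and 3983 in the transgenic arrays, the same order of arrays as the representative. The probe set 1427260_a_at was nearly level, at 3551 and 3479 against 3989 and 3318 (difference 0.050, 95% interval -0.43 to 0.52). The probe set 1427567_a_at read 635 and 772 against 883 and 653. The remaining one, below the filter, ran from 49.4 to 771 within the control group alone. The files do not say which isoforms of the gene each probe set detects, so muscle and cytoskeletal forms could not be told apart. The other 2 probe sets of Tpm1, 1423721_at and 1456623_at, had differences of -0.30 and 0.15, also with overlap.

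Tpm2, the beta-tropomyosin gene, had differences above 0 in all 4 of its probe sets, of 0.17 to 0.70, and none passed the test. The representative read 82197 and 56822 in control and 84872 and 76908 in transgenic muscle, a difference of 0.24 ± 0.23 between groups that overlap (adjusted p = 0.783 with limma). Its sign turned without non-transgenic replicate 2, to -0.025. The probe set 1419738_a_at read 52599 and 36854 in the controls and 73340 and 69637 in the transgenic arrays. Its groups did not overlap, and it differed by 0.70 ± 0.22 (95% interval 0.18 to 1.22, adjusted p = 0.308 with limma). The probe set 1425028_a_at read 62618 and 59564 against 78464 and 82510, also apart (0.40 ± 0.18). The last, 1449577_x_at, read 62287 and 54045 against 58848 and 71961 and overlapped. The log2 ratio of Tpm2 to Tpm1 was -1.38 and -0.92 in the controls and -0.68 and -0.56 in the transgenic arrays, a difference of 0.53 or 1.45-fold with groups apart by 0.24 (exact two-sided permutation p = 0.333, the smallest the design allows). It was 0.30 without non-transgenic replicate 1 and 0.76 without non-transgenic replicate 2. Over the 12 pairs of probe sets that difference was above 0 in 12, up to 1.0, and the groups were apart in 6.

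**Figure D3:**
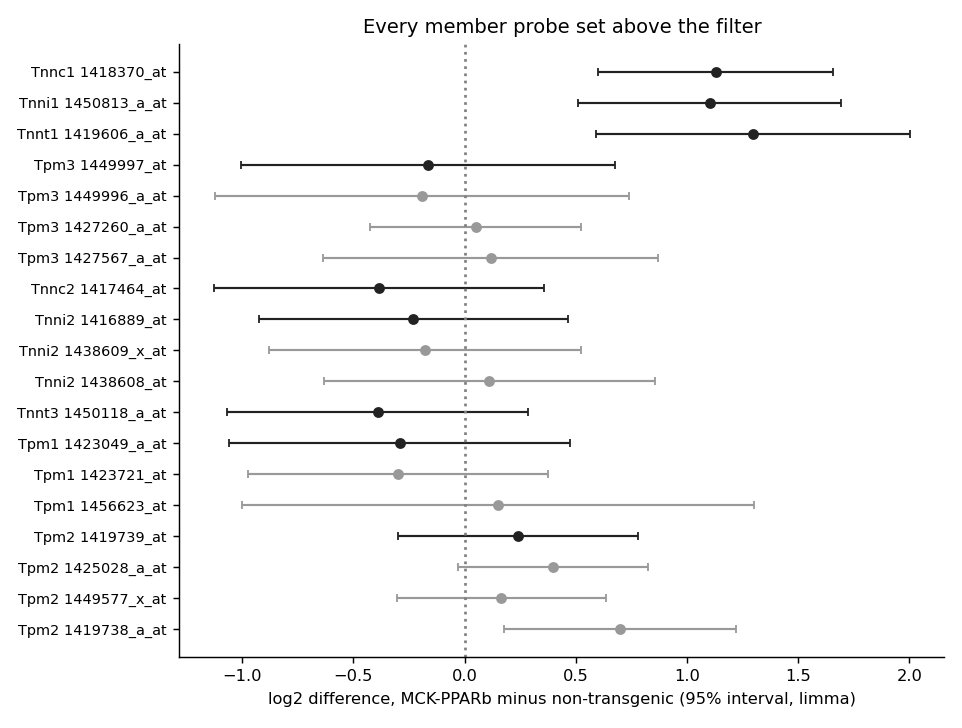
Log2 difference, MCK-PPARb minus non-transgenic (horizontal axis), with its 95% interval from limma, for the 19 member probe sets above the filter. Black points are the probe sets that represent a gene and grey points the others. The intervals of Tnnc1, Tnni1 and Tnnt1 lie above 0, as does that of 1 of the 4 probe sets of Tpm2, and none of the 19 was called after adjustment over all probe sets.

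Tnnt2, the cardiac and developmental troponin T gene, lay below the filter in both of its probe sets and was not tested. The representative, 1424967_x_at, read 198 and 267 in control and 310 and 747 in transgenic muscle. The other, 1418726_a_at, read 12.7 and 152 against 485 and 869. In both, each transgenic array was above each control array. Their log2 differences were 1.07 and 3.88, and raising low signals to the filter level, tried only after the data were seen, brought that of the representative to 0.37, so the size is uncertain. Without a filter the representative did not pass (adjusted p = 0.771 with limma). The suffix x marks a probe set that may also bind related transcripts.

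Markers of immature or regenerating fibres were measured beside Tnnt2. Of the 11 on the list, 6 were above the filter and 0 were called. In 3 of the 6 both MCK-PPARb arrays lay above both controls, against 22.2% of all genes above the filter. These 3 include Myh8, a myosin heavy chain gene, which read 260 and 407 in the controls and 657 and 834 in the transgenic arrays. Both control signals lay below the filter level, so Myh8 was counted only because its transgenic signals were higher. The summed signal of the list was 75337 to 112800 in the controls and 98786 to 103196 in the transgenic arrays, mostly from the gene Des. The following 4 were chosen after their values were seen. Myh3, embryonic myosin heavy chain, read 59.9 and 183 against 1201 and 1561. Chrna1, the acetylcholine receptor alpha subunit, read 1369 and 1240 against 3362 and 3100 (adjusted p = 0.0606 with limma). Ncam1, a cell adhesion molecule of young and denervated fibres, read 297 and 260 against 538 and 678, and Chrng, the fetal receptor subunit, 47.9 and 51.6 against 82.9 and 312. Of these, Myh3, Ncam1 and Chrng lay below the filter and were not tested. In 4 other members of the list the groups overlapped, with differences of -0.22 for Cdh15, -0.020 for Myod1, 0.062 for Des and, below the filter, 0.092 for Pax7. In Myog and, below the filter, Myf5, both transgenic arrays lay above both controls, with differences of 0.92 and 0.56. The part of such fibres in the difference of Tnnt2 was not tested.

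Of the 10 members, 9 could be tested, and 0 were called in either direction, while 0.731% of all 6841 genes were called, 0.409% as higher and 0.322% as lower. Of their 19 probe sets above the filter, 0 were called, against 0.601% of all probe sets. In 5 of the 19 both MCK-PPARb arrays lay above both controls, against 21.4% of all probe sets, and in 0 of the 19 below them, against 19.7%. At an unadjusted p under 0.05 with limma there were 3 of 9 members, the slow troponins, against 10.9% of all genes. Both MCK-PPARb arrays lay above both controls in 3 of the 9, against 22.2% of all genes, and below them in 0 of the 9, against 20.8%. The median difference was 1.12 over the 4 slow genes and -0.34 over the 4 fast genes, beside 0.011 over all genes tested. Without non-transgenic replicate 2, the 3 slow troponins and Tnnc2 were called. Without any other single array 0 members were called, and 0 were called when the intensity trend was left out of the fit. The other sign for the fast genes without non-transgenic replicate 1 applies to that median too.

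**Figure D4:**
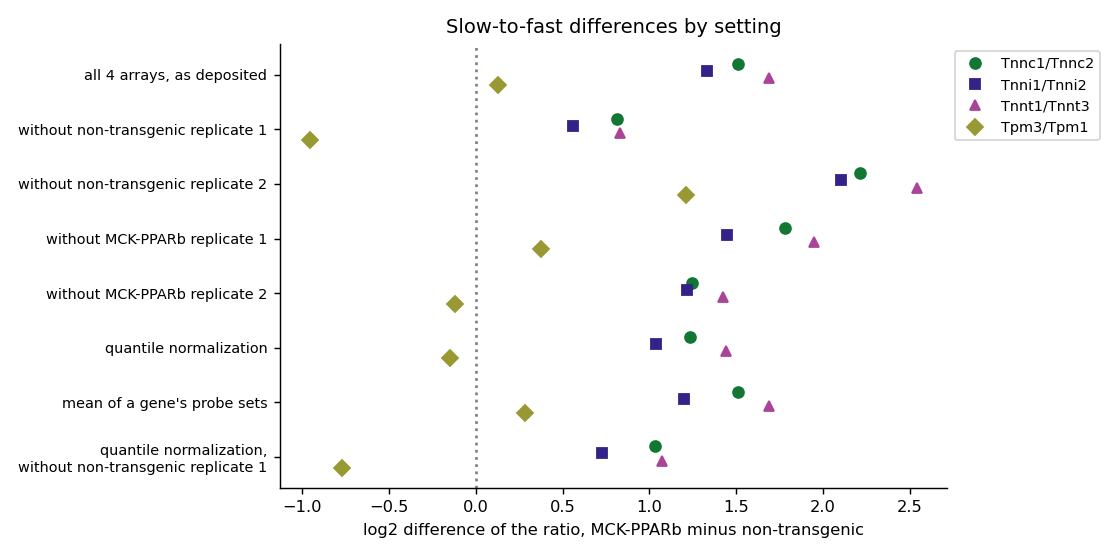
Difference between groups of the 4 slow-to-fast log2 ratios (horizontal axis) under 8 settings (vertical axis), with the dotted line at 0. The 3 troponin ratios stay above 0, lowest without non-transgenic replicate 1 (0.56 to 0.83) and highest without non-transgenic replicate 2 (2.10 to 2.54), and Tpm3/Tpm1 falls on both sides of 0.

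Among the other genes of the thin filament, Lmod2 was called as higher and Actc1 as lower. Of 16 tested, 1 rose (0.409% of all genes), 1 fell (0.322%) and 14 did not pass, with a median of -0.21. At an unadjusted p under 0.05 with limma there were 8 of the 16, 3 higher and 5 lower, against 10.9% of all genes. Both transgenic arrays lay above both controls in 4, against 22.2% of all genes, and below them in 6, against 20.8%. Lmod2, leiomodin 2, which promotes growth of the filament, read 6273 and 7303 in the controls and 18967 and 18358 in the transgenic arrays, and rose by 1.46 ± 0.18 (adjusted p = 0.0205 with limma). Actc1, cardiac alpha-actin, had a difference of -4.54 ± 0.41 and fell (adjusted p = 0.00562 with limma), while Acta1, the skeletal alpha-actin, did not pass. Its signals, 223921 and 113926 against 136104 and 118002, were high on the same control array as the fast troponins.

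Contractile genes of slow fibres outside the thin filament had a median difference of 0.67. Of 11 tested, 1 rose, 0 fell and 10 did not pass, and in 8 both transgenic arrays lay above both controls, against 22.2% of all genes. At an unadjusted p under 0.05 with limma there were 7 of the 11, all higher, against 10.9% of all genes. Both counts include Mybpc3, a gene also listed among the markers of cardiac muscle. It read 389 and 355 in the controls and 727 and 755 in the transgenic arrays. Both control signals lay below the filter level, so Mybpc3 was tested only because its transgenic signals were higher. The gene that rose was Sln, sarcolipin, an inhibitor of the calcium pump, by 7.49 ± 0.42 (adjusted p = 0.000412 with limma). It read 268 and 737 in the controls and 76835 and 82798 in the transgenic arrays. Its signal on non-transgenic replicate 1 lay below the filter level. Those of fast fibres had a median of -0.31, with 0 of 14 called. There were 3 at an unadjusted p under 0.05 with limma, 1 higher and 2 lower, beside the same 10.9% of all genes. In Actn3, Atp2a1, Casq1, Myh1, Myh4, Mylpf and Myoz1, non-transgenic replicate 1 had the highest signal and non-transgenic replicate 2 the lowest. Actn3, for example, read 190901 and 114902 against 130136 and 118359. The other fast-type genes tested did not have that order. The median was not computed without non-transgenic replicate 1. The pair of smallest p were Mybph, myosin binding protein H, at -0.88 ± 0.22, and Smtnl1, a smoothelin-like protein, at 1.52 ± 0.41.

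Of 17 genes of calcium handling around the thin filament, 0 were called and 2 had an unadjusted p under 0.05 with limma (10.9% of all genes), at a median of -0.24. They were Camk2g, a calmodulin-dependent kinase, at -0.63 ± 0.21, and Ppp3r1, the regulatory subunit of calcineurin, at -0.52 ± 0.18. Of 22 regulators of slow and fast troponin genes, 0 were called and 3 had an unadjusted p under 0.05 with limma, against 10.9% of all genes, at a median of 0.065. The pair of smallest p were Mef2d, a MEF2 factor, which read 8867 and 6816 against 14256 and 11261 (0.70 ± 0.22, adjusted p = 0.288 with limma), and Gtf2ird1, a factor that binds the Tnni1 gene, at 0.74 ± 0.28. Of 13 splicing factors that act on troponin T and tropomyosin transcripts, 0 were called and 1 had an unadjusted p under 0.05 with limma, against the same share of all genes, at a median of 0.082. Srsf2, a serine and arginine rich splicing factor, stood at -0.56 ± 0.21, and Khdrbs1, an RNA-binding protein, at 0.36 ± 0.22.

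**Figure D5:**
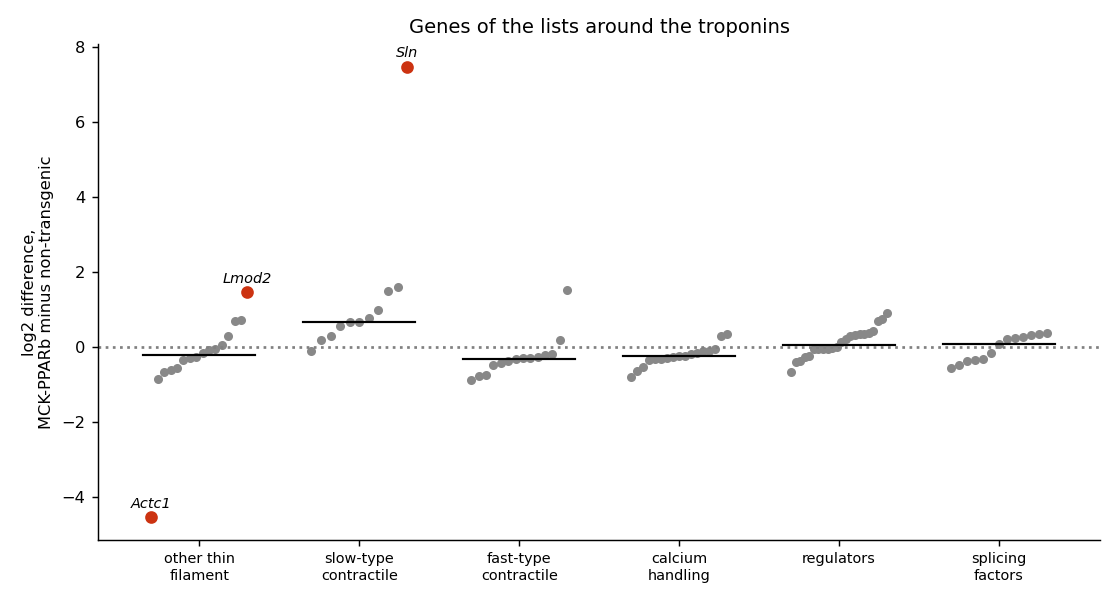
Log2 difference, MCK-PPARb minus non-transgenic (vertical axis), of each tested gene in 6 lists around the troponins. Grey points did not pass, red points were called (Actc1, Lmod2 and Sln), and black lines are the median of a list, from -0.31 for fast-type to 0.67 for slow-type contractile genes.

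Several members lie in pairs along the chromosome. In the RefSeq gene order of GRCm38.p6, Tnni1 and Tnnt2 have 1 protein-coding gene, Lad1, between them on chromosome 1, and Tnni2 and Tnnt3 have Lsp1 between them on chromosome 7. Tnnt1 lies next to Tnni3, the cardiac troponin I gene, elsewhere on chromosome 7. Tnni3 was below the filter, at 242 and 175 in the controls and 287 and 1350 in the transgenic arrays. Markers of cardiac muscle were measured beside it. Of the 8 on that list, 2 were above the filter, 0 were called, and the summed signal was 2036 to 2370 in the controls and 3355 to 4540 in the transgenic arrays. The list and its sum include Tnni3 itself. In Tnni3, Myh6 and Mybpc3 both transgenic arrays lay above both controls. The groups overlapped in Myl4 (0.074) and, below the filter, in Nppb (1.26), Ryr2 (-0.20), Myl7 (-0.22) and Nppa (-0.31). The part of cardiac muscle cells in the signals of Tnnc1, Tnnt2 and Tnni3 was not tested.

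No gene next to a member was called. Of 18 protein-coding genes next to a member, 9 were above the filter. Among these 9, 0 were called, beside a share of 0.731% over the whole array, and 9 genes are too few to tell these apart. At an unadjusted p under 0.05 with limma there was 1 of the 9, against 10.9% of all genes. Lsp1, a leukocyte protein, lies between 2 fast troponin genes and read 4336 and 2355 against 1474 and 1854 (-0.95, adjusted p = 0.338 with limma). Among the 9 above the filter, Lactb, next to Tpm1, had the highest difference, 0.63, and did not pass. Igf2, chosen after its values were seen, lies 2 genes from Tnnt3 and rose, from 4719 and 3985 to 85403 and 82189 (adjusted p = 0.000187 with limma). Mrpl23, between Igf2 and Tnnt3, had a difference of -0.15 and Tnnt3 itself of -0.39, and neither passed.

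Markers of other cell types that could carry tropomyosin were compared beside Tpm1 and Tpm2. Of 8 smooth muscle markers, 5 were above the filter and 0 were called, with a summed signal of 22787 to 26228 in the controls and 26737 to 30234 in the transgenic arrays. Among them only Smtn had both transgenic arrays above both controls, with a difference of 0.54. The groups overlapped in Acta2 (0.066), Tagln (0.059), Mylk (-0.25) and Myh11 (-0.66). They also overlapped, below the filter, in Cnn1 (0.60), Myocd (0.044) and Lmod1 (-0.13). Of 8 fibroblast markers, 8 were above the filter and 0 were called, with 262010 to 305317 against 243384 to 294106. The sums of Schwann cell and nerve markers, mostly from Pmp22 and Mbp, were higher on both transgenic arrays than on both controls. Pmp22 and Mbp had differences of 0.67 and 0.96. The other markers stood at 0.29 for Sox10 and, below the filter, -0.13 for Mag and -0.94 for S100b. Of 5 with a probe set, 3 were above the filter and 0 were called, and the summed signal was 18251 to 20115 in the controls and 30447 to 34168 in the transgenic arrays. For adipocytes 3 of 5 were above the filter, 0 were called, and the sums, most of which came from Fabp4 (difference -0.23), were 9561 to 14305 and 12392 to 12482. In the other 2 above the filter, Adipoq and Retn, both transgenic arrays lay above both controls, with differences of 1.03 and 1.02, and the median of the 3 was 1.02. Below the filter, Lep stood at -0.80, with both transgenic arrays below both controls, and Cidec at -0.47 with overlap. The median over all 5 adipocyte markers was -0.23. No marker of these 4 lists, or of the lists of immature fibres and cardiac muscle, was listed at 0. The part of such cells in the results was not tested.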

How the data were processed

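Per the labels' protocols, RNAzol B was used to extract total RNA of 4 gastrocnemius samples, which was hybridised as biotinylated cRNA to Affymetrix arrays. The authors deposited linear signal intensities, 1 for each probe set on each array. The submitters' processing notes name MAS5 and GCOS without versions. The trimmed mean (2% of probe sets left out at each end) was 1501 on every array, which shows a common scaling. Symbols came from the platform annotation and were updated by gene number. Promoter windows were found for 8 members, not for Tnni2 and Tnnt3.

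Signals were log2-transformed as deposited, without pseudocount or further scaling. Of 22626 probe sets, 11313 passed the filter. The test was that of limma 3.58.1 under R 4.3.3 (lmFit, and eBayes with an intensity trend, Benjamini-Hochberg adjustment). The fit was tested on simulated data. Ratios were compared with an exact permutation test. Arrays carry no read depth, and their number limits the precision.

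The named genes were all members with every probe set, Ppard, from each list the called genes or otherwise the pair of smallest p, genes next to a member, and the markers of the tissue. The members and lists were chosen with earlier results of these data known. The alternatives were no filter or one at the 75th percentile, a pseudocount of 100, median centring, quantile normalization, no trend, robust eBayes, a replicate block, each array left out, an adjusted p under 0.1, no _s_at and _x_at probe sets, and averaging the probe sets of a gene. Quantile normalization without non-transgenic replicate 1, low signals raised to the filter level, and all pairs of probe sets were added after seeing the data.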

Additional observations from a re-analysis of the deposited data

How the results depend on the processing

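With all arrays, 0 members, 50 genes and 68 probe sets were called. With a replicate block 3 members were called, all higher (the slow troponins, adjusted p = 0.00263 to 0.0104 with limma), with 218 genes and 377 probe sets. The arrays share a number only. The deviations of same-numbered arrays correlated at 0.28 over probe sets, and 2 pairs cannot show that the numbers pair the samples. At an adjusted p under 0.1, 1 member (Tnnc1, higher), 102 genes and 150 probe sets were called, without the trend 0 members, 14 genes and 21 probe sets, and with median centring 116 probe sets. Median centring lowered every difference by 0.11. Leaving out 1 array gave 0 to 4 members, 0 to 3 higher and 0 to 1 lower, 30 to 129 genes and 45 to 194 probe sets. The lone array of a group was then assumed to vary like the others. The adjusted p over the alternatives ran from 0.00413 to 0.447 for Tnnc1, 0.0104 to 0.447 for Tnni1 and 0.00263 to 0.459 for Tnnt1.

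Leaving out 1 array, the ratio difference ran from 0.81 to 2.21 for troponin C, 0.56 to 2.10 for troponin I, 0.83 to 2.54 for troponin T and -0.95 to 1.21 for alpha-tropomyosin. The last was also -0.15 with quantile normalization, -0.12 without MCK-PPARb replicate 2 and -0.77 with that normalization and non-transgenic replicate 1 left out. The other 5 ratios kept their direction in all 17 alternatives, many of which cannot change a ratio within an array. Signs that turned for single genes were those of Tnnc2, Tnni2, Tnnt3, Tpm1, Tpm2 and Tpm3 on leaving out 1 array, with ranges of -0.86 to 0.096, -0.65 to 0.19, -0.79 to 0.010, -0.79 to 0.20, -0.025 to 0.51 and -0.75 to 0.42, Tnni2 (0.087) with quantile normalization, Tpm3 (0.14) with the mean of its probe sets, and Tnni2 (0.071) and Tpm1 (0.039) with that array left out after quantile normalization. Of these, Tnnc2 at -0.86 was called, and the cause was not tested. Tnnt2 stood at 3.88 without _s_at and _x_at probe sets and 2.48 with the mean of both. With 2 arrays per group, signals of Tnnt2 near the background limit what can be said of its size.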
